A study of Homo sapiens with 4 samples.

Results

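The transcripts examined here were those of 10 regulators of T lineage development and T cell leukemia, namely TAL1, TCF12, GATA3, RUNX1, MYB, NOTCH1, TCF7, LEF1, BCL11B and IKZF1, in a list of RNA regions recovered with PRMT5. The genes were listed by name and not by a rule on their values, although earlier results of these data were known. A peak was taken as theirs when its Ensembl identifier led to the gene, through the symbol the study itself gave for TCF7 and through the GRCh38 gene on the same strand for the other 9 members. All 10 genes were found, with 41 of the 18993 peaks and 10 of the 8478 identifiers in the list, and none of the 41 peaks listed more than 1 identifier.

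The RNA came from Jurkat cells, an established line of human leukemic T cells, which had been stimulated with PHA, a lectin that activates T cells, for 48 hours and irradiated with UV light to crosslink proteins to RNA. There were 2 libraries of RNA recovered by FLAG immunoprecipitation (PRMT5 RIP) and 2 libraries of input RNA, and both groups had the same cell line and PHA treatment. The deposited list holds 1 pooled value per group at each peak, in RPM (read numbers scaled to a fixed library total) rounded to 0.01, so no spread between replicates is known for the values below, and none of them was tested here, and the depth of each library is unknown. A control immunoprecipitation was not analysed here. Of 8 T cell marker genes, 7 had peaks, led by CD3D with 417 RPM in input, and only RAG1 had none. Among B cell marker genes, CD79A had peaks, with a sum of 37.3 RPM in input, and MS4A1 had none. The myeloid marker genes LYZ, CD14 and ITGAM had no peak. For markers and partner genes, no peak means that no identifier bearing the gene's symbol came first at any peak. Symbols were found for 7211 of the 8478 identifiers, and 1638 peaks listed several identifiers, so a peak of such a gene can have been missed.

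The members belong to one regulatory network. TAL1 is a basic helix-loop-helix factor that is silent in most mature T cells and is aberrantly active in part of T cell acute leukemias, where it binds DNA as a dimer with an E protein such as TCF12 (also called HEB) and together with GATA3, RUNX1 and MYB. NOTCH1 is a receptor whose cleaved intracellular part acts as a transcriptional activator and instructs progenitors to become T cells. TCF7 (TCF-1) and LEF1 are related HMG-box factors downstream of these signals, BCL11B is a zinc finger factor needed for T cell commitment, and IKZF1 (Ikaros) is a zinc finger factor of lymphocyte development. PRMT5 is an arginine methyltransferase that works with WDR77, and the study asked which RNAs it contacts.

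Most peaks of these genes lay above input by less than 2-fold. By the log2 ratio of PRMT5 RIP over input, with 0.01 RPM added to both values, 12 of 41 peaks were at least 2-fold above input, against 55.7% of all peaks in the list. Another 25 lay between input and 2-fold, and 4 were below input; 3.84% of all peaks were below input. The median log2 ratio was 0.59 over the 41 peaks and 1.10 over all peaks. The members' peaks were also more abundant than most, with a median of 3.36 RPM in input against 0.83 RPM over the list. Where input held 1 RPM or more, 8 of 28 member peaks reached 2-fold, against 39.8% of all such peaks, with medians of 0.57 and 0.83. Whether abundance had a part in the lower ratios was not tested.

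**Figure D1:**
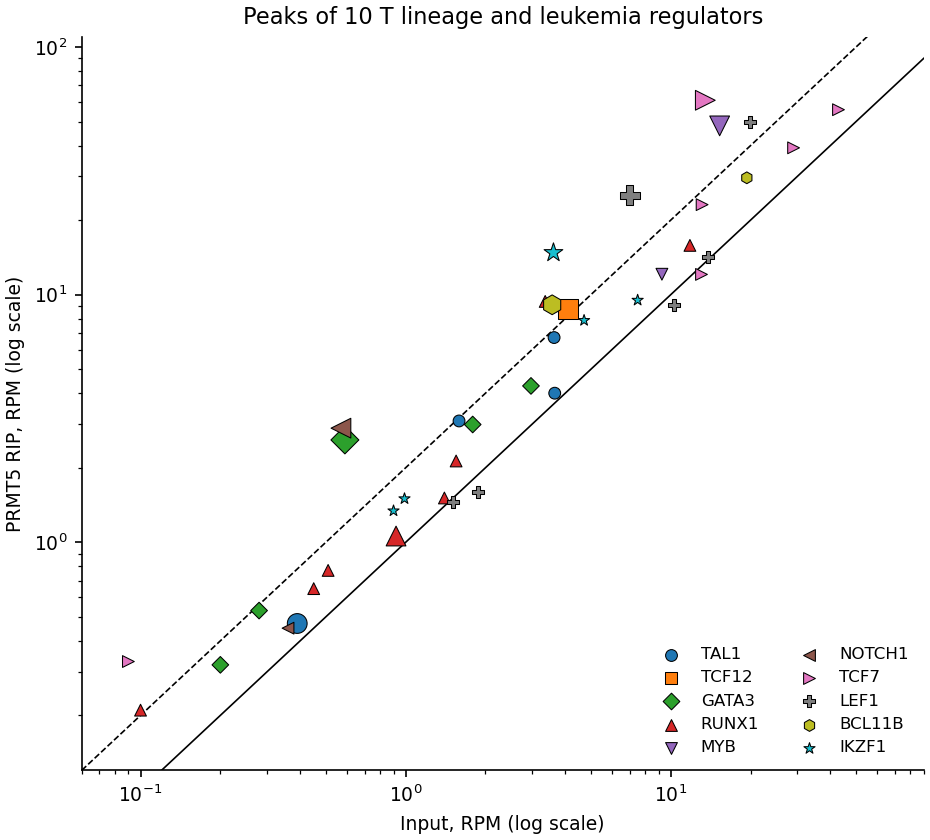
RPM in PRMT5 RIP (vertical, log scale) against RPM in input (horizontal, log scale) for the 41 peaks of the 10 genes, 1 symbol per gene, with the peak nearest the 5′ end of each gene drawn larger. The solid line marks equal values and the dashed line a ratio of 2, and 12 peaks lie at or above the dashed line once 0.01 RPM is added to both values.

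Summed over the peaks of a gene, 3 of the 10 members were at least 2-fold above input, against 62.3% of all identifiers, and among the 9 members with at least 1 RPM summed in input there were 2, against 49.3% of all such identifiers. The 3 were NOTCH1, with 3.34 RPM after PRMT5 RIP against 0.93 RPM in the input RNA (a ratio of 3.59), MYB, with 60.11 RPM and 24.55 RPM (2.45), and TCF12, with 8.76 RPM and 4.09 RPM (2.14). The median log2 ratio of sums was 0.89 for the members and 1.20 for all identifiers. TAL1 had the lowest value, 0.62, which was above that of only 18.0% of identifiers, and RUNX1 followed closely with 0.65. BCL11B had 0.76, TCF7 0.78, GATA3 0.88, LEF1 0.90 and IKZF1 0.98. NOTCH1 stood above 79.9% of identifiers by its log2 ratio, but it was also the member with the least input RNA, which exceeded that of 34.3% of identifiers. With 1 RPM added to both values, its log2 ratio went from 1.83 to 1.17, below the 1.26 of MYB, and 2 of the 10 members reached 2-fold, against 30.0% of all identifiers. With no replicate values, the order of neighbours such as TAL1 and RUNX1 cannot be set against their error.

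**Figure D2:**
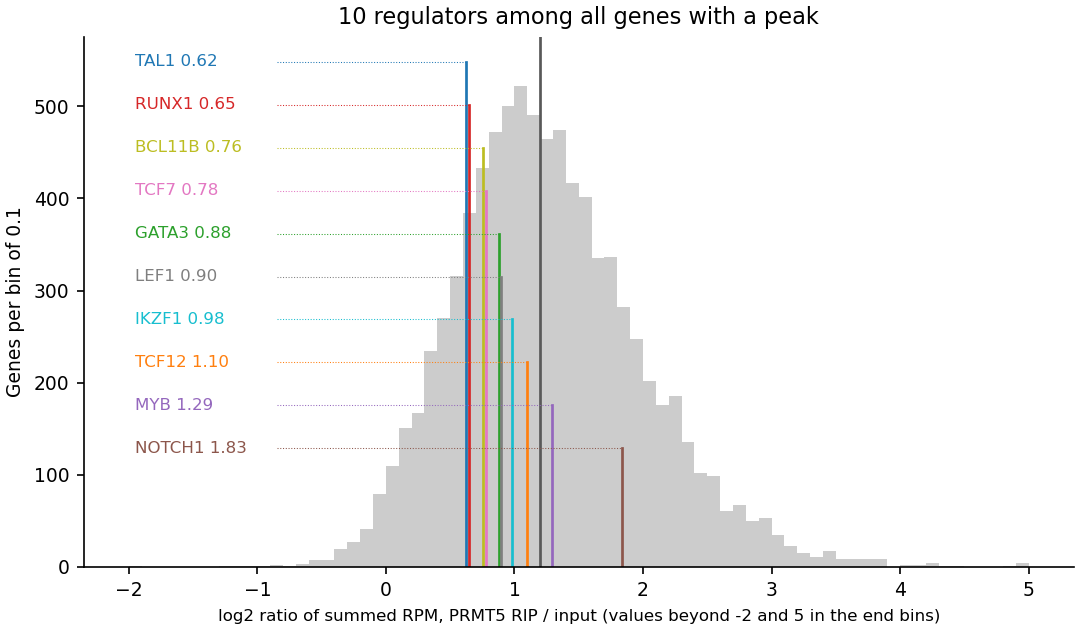
Number of identifiers (vertical) per bin of 0.1 in the log2 ratio of summed RPM, PRMT5 RIP over input (horizontal), for all 8478 identifiers in grey, with their median of 1.20 as a dark line. Coloured lines mark the 10 genes; their heights carry no value. TAL1 and RUNX1 lie lowest, with 0.62 and 0.65, and MYB and NOTCH1 are the only 2 members to the right of the median.

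Levels differed more widely between members than ratios did. Per kilobase of peak width, LEF1 had the highest input level, 8.68 RPM, followed by RUNX1 with 3.88, TCF7 with 3.69 and MYB with 2.21. TCF12, GATA3 and TAL1 lay close together, with 1.67, 1.64 and 1.53 RPM per kilobase. IKZF1 with 0.595, BCL11B with 0.572 and NOTCH1 with 0.0424 were lowest. The width counts introns wherever a peak runs across them. The widest peaks belonged to BCL11B, TCF7, NOTCH1 and IKZF1, so these levels are lowered by an amount that could not be measured without exons. In PRMT5 RIP, LEF1 again led with 16.2 RPM per kilobase, and NOTCH1 was again last with 0.152.

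TAL1, the leukemic helix-loop-helix factor, was represented by 4 peaks on chromosome 1 (minus strand) and none of them reached 2-fold. From the 5′ end, the first spanned 47229769 to 47231678, with 0.47 RPM after PRMT5 RIP against 0.39 RPM in the input RNA. The second, from 47225663 to 47229368, had 6.71 RPM against 3.63 RPM. The third, from 47225488 to 47225637, had 4.0 RPM against 3.65 RPM and so stood almost at input. The last, 275 nt wide from 47219590 to 47219864, had 3.09 RPM against 1.59 RPM, and its log2 ratio of 0.95 was the largest of the gene. The second TAL1 peak lay over 2 peaks on the plus strand, which were given to another identifier, and whether their reads have a part in its value was not tested, as the strand setting of the counting is not given in the sources used here.

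TCF12, the E protein partner of TAL1, had a single peak, on the plus strand of chromosome 15 from 56918648 to 56921094. It had 8.76 RPM after PRMT5 RIP against 4.09 RPM in the input RNA, a log2 ratio of 1.10 that stood at the median of all peaks. The gene spans 373221 nt, and this peak ended 3004 nt from its 5′ end, so no peak was listed over the remaining 370216 nt.

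GATA3, the zinc finger factor of T helper and early T lineage cells, was represented by 5 peaks on chromosome 10 (plus strand), and only the first reached 2-fold. That peak, from 8054688 to 8055332, began at an annotated transcript start and had 2.59 RPM after PRMT5 RIP against 0.59 RPM in the input RNA, a ratio of 4.39. The next, 25 nt from 8055558 to 8055582, had 0.32 RPM against 0.20 RPM. The third, from 8055608 to 8055832, held the most input RNA of the gene and had 4.28 RPM against 2.97 RPM. Between the first peak and this one the ratio went from 4.39 to 1.44. The fourth, from 8055858 to 8058465, had 2.99 RPM against 1.79 RPM, while the fifth, from 8058491 to 8058540, had 0.53 RPM against 0.28 RPM.

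RUNX1, the DNA-binding subunit of core binding factor, was represented by 8 peaks on chromosome 21 (minus strand), and here the ratio was highest at the 3′ end. The peak nearest the 5′ end, from 35048861 to 35048910, had 1.06 RPM after PRMT5 RIP against 0.92 RPM in the input RNA. The second, from 34888674 to 34892957, lay over an internal transcript start and had 2.13 RPM against 1.55 RPM. It was followed by a pair of 50-nt peaks, from 34888299 to 34888348 with 0.65 RPM against 0.45 RPM and from 34888174 to 34888223 with 0.77 RPM against 0.51 RPM. The strongest peak in both groups, from 34886874 to 34887098, had 15.81 RPM against 11.81 RPM, a ratio of only 1.34. A further peak from 34859492 to 34859541 stood near input, with 1.51 RPM against 1.40 RPM. Both peaks at the far 3′ end of the gene reached 2-fold. One, 25 nt from 34792351 to 34792375, had 0.21 RPM against 0.10 RPM, so rounding alone leaves its log2 ratio anywhere from 0.90 to 1.10. The other, from 34791851 to 34792300, had 9.39 RPM against 3.36 RPM, a ratio of 2.79 and a log2 ratio of 1.48, and ended 4050 nt before the 3′ end of the gene.

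MYB, a proto-oncogene that drives proliferation of T cell progenitors, was represented by 2 adjoining peaks on chromosome 6 (plus strand). The first ran from 135181333 to 135190189, beginning 25 nt after the annotated start, with 48.02 RPM after PRMT5 RIP against 15.29 RPM in the input RNA, a ratio of 3.14. The second ran from 135190215 to 135192465, with 12.09 RPM against 9.26 RPM, a ratio of 1.31. The first peak thus held 79.9% of the MYB RPM in PRMT5 RIP and 62.3% of that in input. No peak was listed over the last 26707 nt of the gene.

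NOTCH1 was represented by 2 peaks on chromosome 9 (minus strand), and the largest ratio of all 41 peaks was in the first. That peak spanned 136544052 to 136545924, from 124 nt to 1996 nt after the gene's 5′ end, with 2.89 RPM after PRMT5 RIP against 0.57 RPM in the input RNA, a ratio of 5.07 and a log2 ratio of 2.32. It was above 91.4% of all peaks in the list. The second covered 20069 nt from 136523958 to 136544026 and had 0.45 RPM against 0.36 RPM. The remaining 29525 nt toward the 3′ end of the gene held no peak.

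TCF7, for which the members' highest PRMT5 RIP value was recorded, was represented by 6 peaks on chromosome 5 (plus strand). The first, from 134114706 to 134115689, had 60.94 RPM after PRMT5 RIP against 13.50 RPM in the input RNA, a ratio of 4.51. The second was only 50 nt wide, from 134115765 to 134115814, with 0.33 RPM against 0.09 RPM. The third ran over 22225 nt from 134115890 to 134138114, with 23.09 RPM against 13.13 RPM. The fourth, from 134138140 to 134140807, fell below input, with 12.07 RPM against 13.06 RPM. The first peak and this latter pair held nearly equal amounts of input RNA, between 13.06 and 13.50 RPM, while PRMT5 RIP ranged from 12.07 to 60.94 RPM among them. The fifth, from 134140858 to 134144800, had the highest input of the whole group, 42.92 RPM, against 55.82 RPM in PRMT5 RIP. The sixth, from 134146212 to 134146611, had 39.16 RPM against 29.06 RPM.

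LEF1, the relative of TCF7, was represented by 6 peaks on chromosome 4 (minus strand), and they split into 2 peaks well above input at the 5′ end and 4 peaks at or below input. The first, from 108168487 to 108168956, began 24 nt before the annotated 5′ end of the gene, with 25.17 RPM after PRMT5 RIP against 7.00 RPM in the input RNA, a ratio of 3.60. The second, from 108166454 to 108168311, had 49.80 RPM against 19.88 RPM, a log2 ratio of 1.32. The third, from 108163701 to 108166278, was below input, with 9.09 RPM against 10.30 RPM. Far downstream, the peak from 108078240 to 108079548 stood at input with 14.14 RPM against 13.81 RPM. Both 25-nt peaks further on were below it, from 108070741 to 108070765 with 1.45 RPM against 1.51 RPM and from 108048720 to 108048744 with 1.60 RPM against 1.87 RPM. The last had the lowest log2 ratio of all members' peaks, -0.22. A plus-strand peak of LEF1-AS1, the antisense transcript of this gene, overlapped both enriched LEF1 peaks, with 18.79 RPM after PRMT5 RIP against 11.21 RPM in the input RNA. Without the peaks that overlap the opposite strand, the log2 ratio of sums of LEF1 changed from 0.90 to -0.06. Whether antisense reads have a part in the 5′ values of LEF1 was not tested.

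BCL11B, the T cell commitment factor, was represented by 2 peaks on chromosome 14 (minus strand). The first, 350 nt from 99271845 to 99272194 and 3 nt from the annotated start, had 9.10 RPM after PRMT5 RIP against 3.57 RPM in the input RNA, a ratio of 2.55. The second, the widest of all members' peaks with 39734 nt from 99231436 to 99271169, had 29.64 RPM against 19.36 RPM, a ratio of 1.53. No peak was listed over the last 62149 nt of the gene.

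IKZF1 was represented by 5 peaks on chromosome 7 (plus strand), and only the first reached 2-fold. It ran from 50304068 to 50308692, with 14.77 RPM after PRMT5 RIP against 3.61 RPM in the input RNA, a ratio of 4.09. The second, from 50308893 to 50327744, held more input RNA, 7.50 RPM, but less RNA in PRMT5 RIP, 9.50 RPM, so its ratio was 1.27. The third, from 50376603 to 50382698, had 7.87 RPM against 4.71 RPM. Both 100-nt peaks nearest the 3′ end lay close to each other in ratio, from 50387361 to 50387460 with 1.34 RPM against 0.90 RPM and from 50391744 to 50391843 with 1.50 RPM against 0.99 RPM.

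The peak nearest the 5′ end had the higher ratio of the 2 ends in 7 of the 9 members with more than 1 peak, and this was so in 69.7% of all genes with more than 1 peak, a share close to that of the members. The gap between the 5′-most and the 3′-most peak was largest in LEF1, with log2 ratios of 1.84 and -0.22, and in NOTCH1, with 2.32 and 0.31. TCF7 had 2.17 and 0.43, IKZF1 2.03 and 0.59, MYB 1.65 and 0.38, GATA3 2.12 and 0.90, and BCL11B 1.35 and 0.61. RUNX1, with 0.20 and 1.48, and TAL1, with 0.26 and 0.95, went the other way. Of the 10 first peaks, 8 were at least 2-fold above input, with a median log2 ratio of 1.75, against 69.6% of first peaks over all identifiers on 1 strand. Of the other 31 peaks 4 were, with a median of 0.53, against 44.5% of such peaks in the list. When the first peak of each member was left out, 0 of the 9 remaining members were 2-fold above input by summed RPM, against 47.5% of all identifiers treated in the same way. This alternative was added after the first peaks were seen to be high. The first peak began within 50 nt of an annotated start in 6 members (TAL1, TCF12, GATA3, MYB, LEF1 and BCL11B), a distance chosen after the values were seen, and did so in 48.0% of all named genes.

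In 5 members, TCF12, GATA3, MYB, NOTCH1 and BCL11B, every peak lay within the first 50% of the gene's length. Over all members this was so for 23 of 41 peaks, and for 48.9% of the peaks of named genes. The last peak ended at 98.5% of the gene's length in RUNX1, 96.0% in TCF7 and 99.0% in LEF1, and at 87.0% or less in the others. Which exons, introns or untranslated parts the peaks cover was not analysed here. A peak on the opposite strand overlapped 3 of the 41 peaks, 1 in TAL1 and 2 in LEF1, against 18.1% of all peaks.

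Peaks of 5 members reached upstream of an annotated transcript start, whether their ratios were high or low. They were the first peak and the third of TCF7, with ratios of 4.51 and 1.76. IKZF1 had its first and second among them, with 4.09 and 1.27, and LEF1 its first and second, with 3.60 and 2.51. The single peak of TCF12, with 2.14, and the second of RUNX1, with 1.37, completed them. The first LEF1 peak reached before the gene's 5′ end, a start that had no window among those used next. The other peaks reached only past starts that lie inside the gene's span, downstream of its 5′ end. In the RefSeq table of start windows for GRCh38.p14 (250 bases before and 50 after each start), 9 of the 23 windows of the members, from 5 genes, had at least 1 base before the start inside a peak of the gene, against 17.3% of the windows of all named genes. Windows of one gene can share a peak. The stretches below lie before the start and inside the peak and are given 5′ to 3′ on the gene's strand. They show, for each of the 5 genes, the stretch nearest its 5′ end among its start windows. Sequence under peaks of high and low ratio can so be read side by side. All 5 stretches lie inside the gene's span, downstream of its 5′ end. They are chr5:134115363-134115612 on the plus strand for TCF7, chr7:50304466-50304715 on the plus strand for IKZF1, chr4:108166454-108166551 on the minus strand for LEF1, chr15:56918837-56919086 on the plus strand for TCF12, and chr21:34888700-34888949 on the minus strand for RUNX1. Capitals mark CANNTG, the E-box that helix-loop-helix dimers such as TAL1 with TCF12 recognise in DNA.
TCF7: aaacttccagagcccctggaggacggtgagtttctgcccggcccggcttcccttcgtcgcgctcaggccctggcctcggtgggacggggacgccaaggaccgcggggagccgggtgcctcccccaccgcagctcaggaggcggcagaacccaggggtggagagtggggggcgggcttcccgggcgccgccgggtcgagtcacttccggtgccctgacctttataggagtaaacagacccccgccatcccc
IKZF1: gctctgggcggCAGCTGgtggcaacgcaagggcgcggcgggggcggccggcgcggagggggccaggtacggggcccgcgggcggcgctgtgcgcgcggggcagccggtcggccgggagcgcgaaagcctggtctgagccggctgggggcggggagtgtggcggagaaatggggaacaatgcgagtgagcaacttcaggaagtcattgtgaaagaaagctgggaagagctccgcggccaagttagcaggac
LEF1: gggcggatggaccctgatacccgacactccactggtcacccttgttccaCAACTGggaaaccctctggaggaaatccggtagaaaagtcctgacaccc
TCF12: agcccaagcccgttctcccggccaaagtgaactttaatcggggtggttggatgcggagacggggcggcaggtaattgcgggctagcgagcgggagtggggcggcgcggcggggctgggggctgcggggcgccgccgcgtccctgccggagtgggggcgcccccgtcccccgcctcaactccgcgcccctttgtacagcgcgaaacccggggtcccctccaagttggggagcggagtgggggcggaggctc
RUNX1: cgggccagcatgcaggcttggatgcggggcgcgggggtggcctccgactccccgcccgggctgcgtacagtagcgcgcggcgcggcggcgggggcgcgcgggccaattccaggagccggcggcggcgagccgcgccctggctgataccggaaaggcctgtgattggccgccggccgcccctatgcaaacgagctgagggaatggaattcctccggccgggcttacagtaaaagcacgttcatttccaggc

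Over all 9 stretches the GC content ranged from 32.8% to 73.2%, against a median of 58% over the 250 bases before the start in all 35116 windows. In IKZF1, the stretches inside the first peak had 71.2% and 44.9%, and that inside the second had 32.8%. TCF12 had 73.2% and 68.4%, TCF7 had 70.8% in the first peak and 62.0% in the third, RUNX1 had 71.2% and LEF1 57.1%. An E-box stood in 3 of the 9 stretches, that of LEF1, the first of IKZF1 and the one in the third peak of TCF7. Over the whole 300-base windows, CANNTG, which reads the same on both strands, was found in 11 of the 23 windows of the members and in 68.7% of all windows. The motif AGATAA of the GATA factors was found on either strand in 2 windows and in 10.3% of all. The RUNX motif TGTGGT was found in 4 and in 13.1% of all, and the motif CTTTGA of TCF7 and LEF1 in 1 and in 12.9% of all. None of these motifs contains another, and a match is a matter of letters only.

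Partners and pathway genes of the 10 regulators were described by role. Of 55 such genes, 29 had a peak under their symbol. Of the 29, 19 were at least 2-fold above input by summed RPM, beside the 62.3% of all identifiers given above. That share also stands beside the count of each role below. The median log2 ratio of the 29 was 1.55, against 1.20 over all identifiers. None of the 29 lay below input, and only 188 of all 8478 identifiers did. With only the peaks of at least 0.5 RPM in input, 8 of 17 genes reached 2-fold, against 50.6% of all identifiers. With 1 RPM added to both values 11 of 29 did, against 30.0% of all identifiers.

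Among cofactors of TAL1, 4 of 8 genes had peaks, 2 of them at least 2-fold above input. TCF3, which encodes the E2A proteins, had 37.6 RPM after PRMT5 RIP against 24.03 RPM in the input RNA (log2 ratio 0.65), close to the value of TAL1. CBFA2T3, a corepressor, had 8.35 RPM and 4.63 RPM (0.85), and LYL1, the closest relative of TAL1, had 9.53 RPM and 2.94 RPM (1.69). TCF4, LMO2, LDB1 and GATA2 had no peak. Among RUNX and ETS factors, 5 of 8 had peaks and 2 reached 2-fold. CBFB, the non-DNA-binding partner of RUNX1, had 16.61 RPM and 3.38 RPM (2.29), against 0.65 for RUNX1. ETS1 had 7.62 RPM and 4.48 RPM (0.77), FLI1 had 5.23 RPM and 3.04 RPM (0.78), and RUNX2, RUNX3 and ERG had no peak.

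In the NOTCH pathway 9 of 14 genes had peaks and 8 reached 2-fold, against 62.3% of all identifiers. Their median log2 ratio was 1.75, beside the 1.83 of NOTCH1. Summed input in this group went as low as 0.04 RPM. With 1 RPM added to both values, NOTCH1 itself had 1.17. HES4, a target gene of the pathway, had 399.85 RPM after PRMT5 RIP against 86.72 RPM in the input RNA (2.20). FBXW7, the ubiquitin ligase subunit that turns over the active receptor, had 32.42 RPM and 9.89 RPM (1.71), and DTX1, an E3 ligase and NOTCH target, had 20.21 RPM and 7.83 RPM (1.37). RBPJ, MAML2, DTX4, NRARP and NCSTN had no peak. Of 6 HMG-box and beta-catenin genes 5 had peaks and 4 reached 2-fold. The 4 had summed input of only 0.18 to 0.78 RPM. SOX4, an HMG-box factor, had 75.38 RPM and 49.12 RPM (0.62). TLE4, a corepressor that binds TCF/LEF factors, had 4.63 RPM and 0.78 RPM (2.55), and TLE1 had 3.20 RPM and 0.54 RPM (2.55). TCF7L2 had no peak.

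Of 5 relatives of IKZF1 and BCL11B only BCL11A had peaks, with 1.49 RPM and 0.78 RPM (0.93), and IKZF2, IKZF3, IKZF4 and IKZF5 had none. Of 14 other regulators of the T lineage, 5 had peaks and 3 reached 2-fold. ID3, an inhibitor of E proteins, had 161.56 RPM and 83.58 RPM (0.95), SATB1, a chromatin organiser, had 14.72 RPM and 8.03 RPM (0.87), and GFI1, a repressor, had 2.04 RPM and 0.50 RPM (2.01). ZBTB7B, RORA, ID2, HHEX, TLX1, TLX3, MEF2C and SPI1 had no peak.

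**Figure D3:**
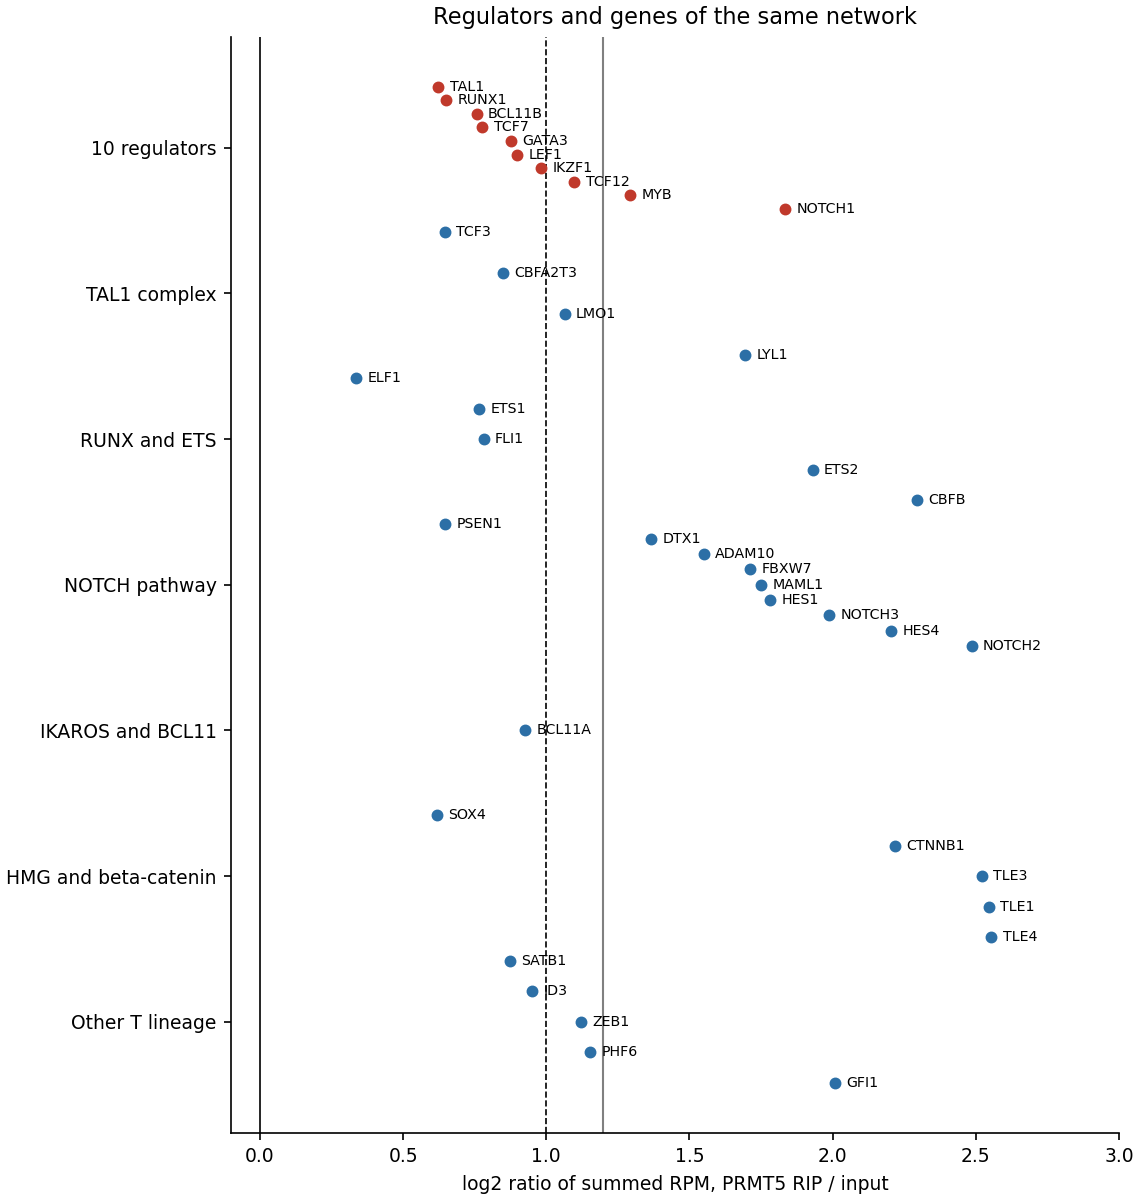
Log2 ratio of summed RPM, PRMT5 RIP over input (horizontal), for the 10 regulators (red) and the 29 partner and pathway genes with a peak (blue), by role (vertical; positions within a role are only spread for reading). The solid line marks input, the dashed line 2-fold and the grey line the median of all identifiers, 1.20. Most of the regulators lie left of the grey line, and the TLE corepressors and most NOTCH pathway genes lie right of it. Summed input goes as low as 0.04 RPM among the genes shown, and is at most 0.78 RPM for the TLE corepressors.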

How the data were processed

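Jurkat RNA from 2 PRMT5 RIP and 2 input libraries was analysed from 1 peak list. According to the submitters' processing notes fastp and HISAT2 were used with hg38; the peak caller, the filters and the pooling of replicates are not given in the sources used here. The RPM values were deposited by the authors as 1 pooled column for PRMT5 RIP and 1 for input, with a denominator that is not stated; over the list they sum to 755969 and 489424. Columns with the authors' own fold change, p-value and FDR compare the groups at each peak and were not used.

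Starts were raised by 1 to count from 1, peaks went to their first-listed identifier, and log2 ratios were taken with 0.01 RPM added. Symbols (7211 of 8478 identifiers) came from the study's target table for 849 identifiers and otherwise from the single GRCh38.p14 RefSeq gene that all peaks of an identifier touched on its strand; genes whose strand the tables lacked were used only where no other was touched. For 782 identifiers named both ways, 780 names were the same. Gene spans were RefSeq's. No test was made, as values per library were not used. The members, lists and limits were chosen with earlier results of these data known. All 10 members were described with every peak; of each role in the partner list, the 3 genes with the most input RNA were named, plus, by name only, genes without a peak, some of which are not reported here. The computation was checked on simulated data and used Python 3.11.15, pandas 2.3.3, numpy 2.4.6 and matplotlib 3.10.9.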

Additional observations from a re-analysis of the deposited data

How the results depend on the processing

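No paired analysis was possible because the list holds 1 pooled value per group, and for the same reason no replicate could be left out. The number of members' peaks at least 2-fold above input, 12 of 41, lay between 9 and 12 under the 6 alternatives tried. Some of these left fewer peaks. They gave 10 of 34 with at least 0.5 RPM in input and 11 of 37 with a width of at least 50 nt. Without overlaps on the opposite strand it was 10 of 38. The number of members by summed RPM, 3 of 10, lay between 2 and 4 under 7 alternatives. It was 0 of 9 without each member's first peak, an alternative added after the values were seen, which TCF12 with its single peak does not enter. Of the 29 partner and pathway genes, 19 reached 2-fold, against 11 with 1 RPM added to both values and 8 of 17 with at least 0.5 RPM in input. The log2 ratio of LEF1, 0.90 by summed RPM, was -0.012 as the median of its peaks and -0.0649 without peaks that overlap the opposite strand. Members whose 5′ peak was the higher one numbered 6 of 8 with at least 0.5 RPM in input, and 7 of 9 in both other alternatives, 1 of them, without overlaps on the opposite strand, added after the values were seen. Peaks within the first 50% of a gene numbered 18 of 34 with at least 0.5 RPM in input, also added later. Under 1 RPM in input, as in 13 of the 41 peaks, rounding to 0.01 and an unknown number of reads limit each ratio.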

Other observations

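Besides that of LEF1-AS1, 4 peaks lay on the opposite strand at the members or within 500 nt of them, and those at TAL1 were the 2 that overlapped its second peak. The plus-strand identifier ENSG00000226252 at TAL1 had a peak from 47225797 to 47225896 on chromosome 1, with 1.74 RPM after PRMT5 RIP against 0.71 RPM in the input RNA, and another from 47229190 to 47229364, with 2.83 RPM and 1.63 RPM. The first of these had a log2 ratio of 1.28, above every sense peak of TAL1. Upstream of NOTCH1, ENSG00000237886 on the plus strand of chromosome 9 had a peak from 136546362 to 136547616, with 0.24 RPM and 0.04 RPM. Its log2 ratio was 2.32, the value of the first NOTCH1 peak, but at 0.04 RPM the input value rests on very little RNA. Within IKZF1, ENSG00000285165 on the minus strand of chromosome 7 had a peak from 50399948 to 50400042, near input with 0.53 RPM and 0.46 RPM.

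The T cell marker genes used to check the cell line had lower ratios than most of the regulators, with median log2 ratios of 0.31 and 0.89. Over all identifiers the median was 1.20, and 62.3% were at least 2-fold above input. Of the 7 with a peak, only PTCRA, the chain that pairs with the beta chain in immature T cells, was 2-fold above input, with 4.12 RPM after PRMT5 RIP against 1.68 RPM in the input RNA (log2 ratio 1.29). Of the 7, CD3D had the lowest, 0.12. LCK, the proximal kinase of the T cell receptor, had 226.37 RPM and 183.11 RPM (0.31). In input, CD3D with 417.11 RPM and LCK exceeded every regulator, of which TCF7 had the most, 111.76 RPM. Whether abundance had a part in the lower ratios of the markers was not tested.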
